A study of Mus musculus with 3 samples.

Results

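FOXA1, FOXA2 and FOXA3 are pioneer factors of the forkhead family. They were followed here in prostate tumors of TRAMP mice with and without Phf8 through the 3 gene rows Foxa1, Foxa2 and Foxa3, chosen by name out of 46095 gene symbols in the count table. TRAMP mice carry the SV40 oncoprotein in the prostatic epithelium and develop prostate tumors. RNA was taken from prostate tumor tissue at 37 weeks of age, with 1 library labelled TRAMP (PHF8 wild-type) and 2 libraries labelled PHF8 knockout, called Phf8-KO1 and Phf8-KO2. Every library, the control included, carries the TRAMP transgene, and each holds RNA pooled from 3 mice in equal mass. The sources used here do not say which part of Phf8 is deleted or whether the Phf8-KO pools come from different mice. With 1 TRAMP library, p-values rest on the spread between the 2 Phf8-KO libraries, which may not be that between mice. The TRAMP library is taken to vary as they do. The libraries held 29954020 counts (TRAMP), 26747443 counts (Phf8-KO1) and 31876182 counts (Phf8-KO2). Phf8 itself, an X-linked histone demethylase gene, had 19.4 CPM (counts divided by the scaled size of the library) in TRAMP against 15.0 CPM for Phf8-KO1 and 15.9 CPM for Phf8-KO2, which, counted over all its exons, cannot check for a partial deletion.

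FOXA proteins carry a winged-helix domain that resembles linker histone and lets them bind their motif in closed chromatin, after which other factors can bind nearby. In the prostate, FOXA1 is found in luminal epithelium and opens chromatin for other factors of these cells. FOXA2 is present in the embryonic prostate buds and, in the adult, is known from neuroendocrine cells and neuroendocrine tumors. FOXA3 is best known from liver, gut and goblet cells of the airway. The study places Foxa2 downstream of PHF8, so the question here is whether the 3 genes differ between TRAMP and Phf8-KO tumors in the same way.

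All 3 genes lie on the minus strand of GRCm38. Foxa1 spans chr12:57540628-57546916 with up to 2 exons, Foxa2 spans chr2:148042877-148046969 with up to 3 exons, and Foxa3 spans chr7:19013284-19023538 with 2 exons. These spans are from GENCODE. The RefSeq promoter table of GRCm38.p6 holds 1 start for Foxa1, 3 for Foxa2 and 1 for Foxa3. The 5′ end of Foxa1 differs between annotations, since the RefSeq gene span reaches 57548029, upstream of both the GENCODE end and the start in the promoter table, and distances to neighbouring genes were taken from the RefSeq spans. The 250 bases before a start are shown for Foxa1 and for 2 of the Foxa2 starts, since the study asks whether a chromatin enzyme acts on Foxa2, and Foxa1 is the gene it is set against here. The windows lie at chr12:57546112-57546361 (Foxa1), chr2:148046970-148047219 (Foxa2, outermost start) and chr2:148045465-148045714 (Foxa2, innermost start), and are written 5′ to 3′ along the gene. Capitals mark matches to the forkhead core, searched as TGTTTAC or TATTTAC or TGTTGAC or TATTGAC on both strands.
Foxa1: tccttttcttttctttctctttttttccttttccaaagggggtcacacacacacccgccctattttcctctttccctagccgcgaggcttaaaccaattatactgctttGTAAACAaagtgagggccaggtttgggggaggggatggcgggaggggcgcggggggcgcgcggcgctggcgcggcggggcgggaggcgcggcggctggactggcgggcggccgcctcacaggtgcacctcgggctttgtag
Foxa2 outermost: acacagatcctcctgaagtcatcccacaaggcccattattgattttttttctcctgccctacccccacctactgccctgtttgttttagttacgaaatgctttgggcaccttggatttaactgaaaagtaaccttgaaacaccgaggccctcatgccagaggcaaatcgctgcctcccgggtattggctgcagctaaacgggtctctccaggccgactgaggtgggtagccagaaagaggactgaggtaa
Foxa2 innermost: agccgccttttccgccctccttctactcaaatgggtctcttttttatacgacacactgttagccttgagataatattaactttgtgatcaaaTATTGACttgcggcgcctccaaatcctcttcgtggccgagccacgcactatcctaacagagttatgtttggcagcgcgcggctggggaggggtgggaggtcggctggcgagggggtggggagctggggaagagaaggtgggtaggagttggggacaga
A forkhead core stood 141 to 135 bases before the Foxa1 start, as TGTTTAC on the opposite strand, and 158 to 152 bases before the innermost Foxa2 start, as TATTGAC on the strand of the gene. The other 2 Foxa2 windows and the Foxa3 window held none of these 4 words. Of 32817 windows of 250 bases before annotated starts, 8.77% held a match. The windows also differed in CpG dinucleotides. Foxa1 had 21, the Foxa2 windows had 6 (outermost), 20 (middle) and 13 (innermost), and Foxa3 had 18, beside a median of 6 over all windows.

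Foxa1 was the abundant member in every library and was somewhat higher without Phf8. Its level was 267 CPM in TRAMP, against 406 CPM for Phf8-KO1 and 464 CPM for Phf8-KO2. Both Phf8-KO pools lay above the TRAMP pool, and the gap to the nearer pool was larger than the distance between the pools. The Phf8-KO mean was 435 ± 40.6 CPM (SD, n = 2), a log2 fold change of 0.70 (standard error 0.25). By the quasi-likelihood test of edgeR, adjusted over 18216 genes by Benjamini-Hochberg, it did not pass (adjusted p = 0.18), nor did it by DESeq2 (adjusted p = 0.063, log2 fold change 0.72). A call also needs a difference of more than 2-fold, which Foxa1 did not reach, so it could not be called at any p. By counting error alone, with exact 95% intervals, the ratio to TRAMP was 1.52 (1.48 to 1.57) in Phf8-KO1 and 1.73 (1.69 to 1.78) in Phf8-KO2. The Phf8-KO pools also differed from each other beyond counting error, by 1.14 times (1.11 to 1.17). A log2 fold change above that of Foxa1 was seen in 25.0% of all tested genes, so a difference of this size was common in these libraries.

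Foxa2 went the other way. It had 140 counts in TRAMP, 8 in Phf8-KO1 and 21 in Phf8-KO2, which is 4.85, 0.30 and 0.634 CPM. The exact counting interval ran from 4.08 to 5.72 CPM for TRAMP, from 0.130 to 0.592 CPM for Phf8-KO1 and from 0.392 to 0.969 CPM for Phf8-KO2, so the TRAMP pool stood clear of both Phf8-KO pools while these overlapped each other. The TRAMP level was 16.1 times that of Phf8-KO1 (7.97 to 38.1) and 7.64 times that of Phf8-KO2 (4.81 to 12.7). The ratio of Phf8-KO2 to Phf8-KO1 was 2.11, with an interval of 0.898 to 5.51 that includes equality. The log2 fold change of -3.35 (standard error 0.73) missed the threshold of edgeR's quasi-likelihood test (adjusted p = 0.11), whereas DESeq2 called Foxa2 lower (adjusted p = 0.024) and so did the quasi-likelihood test with no filter on low counts (adjusted p = 0.023). Of all tested genes, 600 (3.29%) had a log2 fold change below that of Foxa2.

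Foxa3 was at the edge of detection. It had 0 counts in TRAMP, 0 in Phf8-KO1 and 8 in Phf8-KO2, where its level was 0.241 CPM (exact counting interval 0.104 to 0.476). With 0 counts, the exact counting interval reached up to 0.128 CPM in TRAMP and 0.138 CPM for Phf8-KO1. The Phf8-KO2 interval overlaps both. The exact counting lower limit of the ratio of Phf8-KO2 was 1.49 to TRAMP and 1.37 to Phf8-KO1. The gene was too low for the filter and was not tested.

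**Figure D1:**
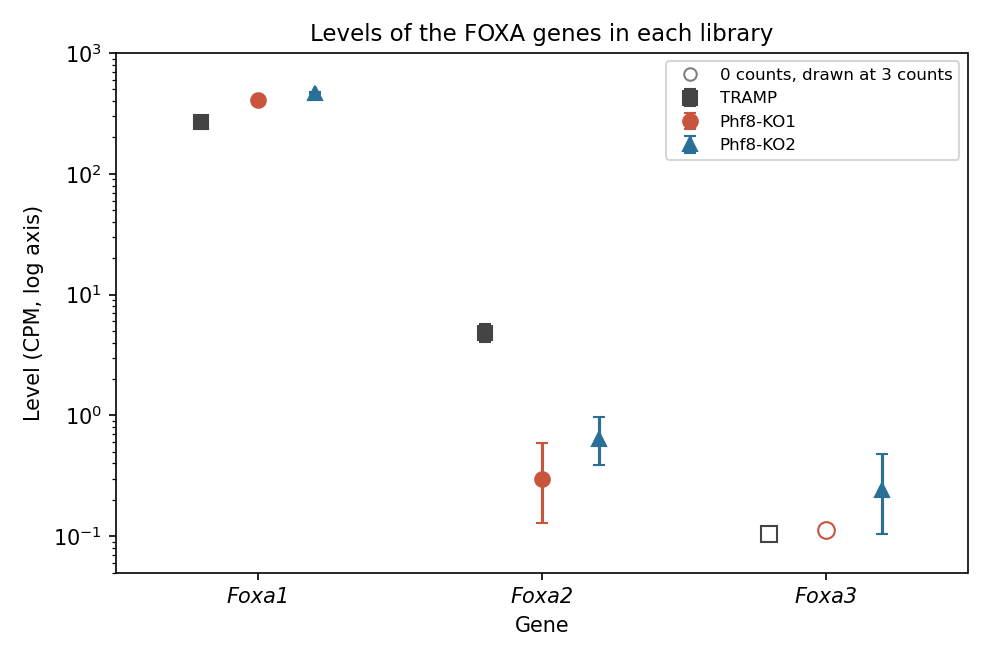
Level of Foxa1, Foxa2 and Foxa3 in CPM (log axis) in each library, a pool of 3 mice, with exact 95% counting intervals as bars (smaller than the symbol for Foxa1). The Foxa1 symbols run from 267 CPM (TRAMP) to 406 and 464 CPM (Phf8-KO), Foxa2 at 4.85 CPM in TRAMP and below 1 CPM in both, and open symbols mark Foxa3 libraries with 0 counts, drawn at the level of 3 counts.

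The calls among the 3 genes have to be read against the whole table. The quasi-likelihood test called 0.0384% of 18216 genes lower in Phf8-KO and 0% higher, and 0 of the 2 FOXA genes tested. Of the 7 genes it called lower, 5 were among the 10 skeletal muscle genes summed further below. At an unadjusted p under 0.05 of the same edgeR test, 12.2% of genes were lower and 14.9% higher, and Foxa2 was among the lower ones while Foxa1 was just outside. DESeq2 called 4.59% of 16269 genes lower and 9.42% higher, Foxa2 being among the lower ones. Of all tested genes, 42.8% lay below TRAMP in both Phf8-KO pools, as Foxa2 did, and 40.8% lay above it in both, as Foxa1 did.

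Levels of different genes were compared per kilobase of exon. In TRAMP, Foxa1 was at 80.3 CPM per kilobase and Foxa2 at 2.04 CPM per kilobase, a ratio of 39.3. The ratio reached 964 for Phf8-KO1 and 521 for Phf8-KO2, where Foxa1 was at 122 and 139 CPM per kilobase and Foxa2 at 0.127 and 0.267 CPM per kilobase. Even in the TRAMP pool, therefore, Foxa2 was a minor transcript beside Foxa1. By CPM, Foxa1 reached or exceeded 97.2% of tested genes in TRAMP, 98.5% in Phf8-KO1 and 98.9% in Phf8-KO2, whereas Foxa2 reached 36.0%, 9.13% and 18.2%.

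The balance of both genes within a library does not depend on how libraries are scaled to each other. Of the 7862 Foxa1 and Foxa2 counts of TRAMP, 1.78% were Foxa2 (exact 95% binomial interval 1.5 to 2.1). The share was 0.0739% of 10831 counts in Phf8-KO1 (0.0319 to 0.145) and 0.137% of 15382 counts in Phf8-KO2 (0.0845 to 0.209). The TRAMP interval lies above both others, and the Phf8-KO intervals overlap. The mean of the Phf8-KO pools was 0.105% ± 0.0443 (SD, n = 2), so the TRAMP share was 16.9 times as large. An exact permutation test of 1 library against 2 cannot give a p below 0.333, and no test was made. The longest run of identical bases between a Foxa1 and a Foxa2 transcript was 38 bases, and between Foxa3 and either of them 20 bases, so reads longer than that differ between the genes.

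**Figure D2:**
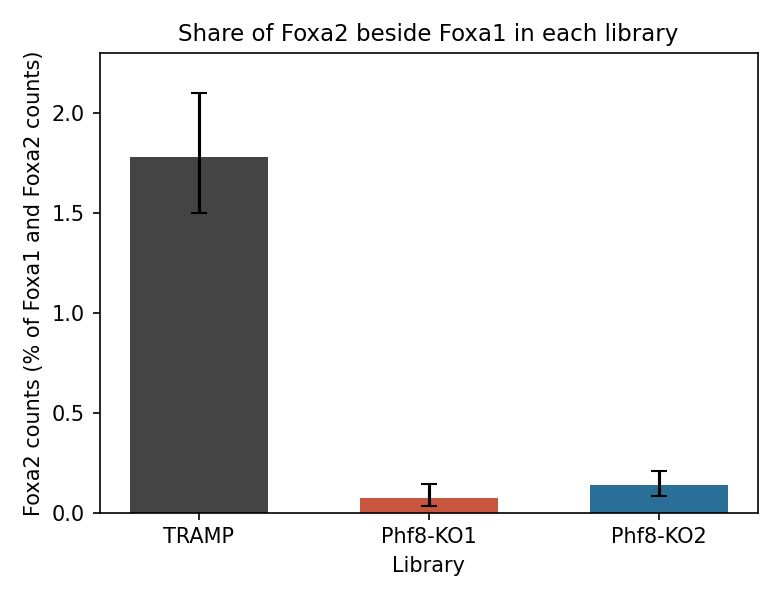
Share of Foxa2 in the summed Foxa1 and Foxa2 counts (%) of each library, with exact 95% binomial intervals for counting error as bars. The share is 1.78% in TRAMP, 0.0739% in Phf8-KO1 and 0.137% in Phf8-KO2.

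The annotated surroundings of the genes, within 200 kb on either side, differed in what was expressed. Near Foxa2, 5 annotated genes were in the table and 1 was tested, the long noncoding RNA gene 9030622O22Rik, while the other 4 had no counts. 9030622O22Rik lies at chr2:147944459-148040513 on the same strand, 2364 bases beyond the 3′ end of Foxa2. It had 120 counts in TRAMP (4.15 CPM), 1 in Phf8-KO1 (0.0375 CPM) and 0 in Phf8-KO2. The ratio of TRAMP to Phf8-KO1 was 111 (exact counting interval 19.5 to 4407), and the exact counting lower limit of the ratio of TRAMP to Phf8-KO2 was 36.7. Its adjusted p was 0.10 by edgeR's quasi-likelihood test (standard error 1.18 on the log2 scale), and DESeq2 called it lower (adjusted p = 0.00095). Transcription past the end of Foxa2 and a separate transcript were not told apart, since only counts per gene were used.

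Near Foxa1, 8 annotated genes were in the table and 4 were tested. The long noncoding RNA Gm20016, 25653 bases beyond the 3′ end of Foxa1, was at 186 CPM in TRAMP, against 127 CPM for Phf8-KO1 and 98.8 CPM for Phf8-KO2, so it lay below TRAMP in both pools where Foxa1 lay above (log2 fold change -0.72 with a standard error of 0.24, adjusted p = 0.17 by edgeR's quasi-likelihood test). Ttc6, whose RefSeq span (chr12:57546704-57737911) overlaps the 5′ end of Foxa1, was at 71.0, 22.8 and 46.9 CPM in the same order, with an adjusted p of 0.26 by the same test. Whether the counting used strand is not stated, and reads in the overlap cannot be assigned to either gene here. Mipol1 was at 11.5, 8.18 and 10.02 CPM. Gm16246 was at 0.761, 1.43 and 19.1 CPM, high in Phf8-KO2 alone.

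Near Foxa3, 18 of 24 genes in the table were tested. Of these, 11 lay above TRAMP in both pools and 2 below, beside 40.8% and 42.8% of all tested genes. The nearest is Sympk, a gene of messenger RNA 3′ end processing, which starts 838 bases upstream of Foxa3 on the opposite strand. It was at 29.0 CPM in TRAMP, against 68.3 CPM for Phf8-KO1 and 77.1 CPM for Phf8-KO2 (adjusted p = 0.10 by edgeR's quasi-likelihood test, 0.00080 by DESeq2). Irf2bp1, on the other side, was at 10.8, 27.0 and 29.4 CPM. Foxa3 was thus at or near 0 between transcribed neighbours, while Foxa2 had a single counted neighbour.

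**Figure D3:**
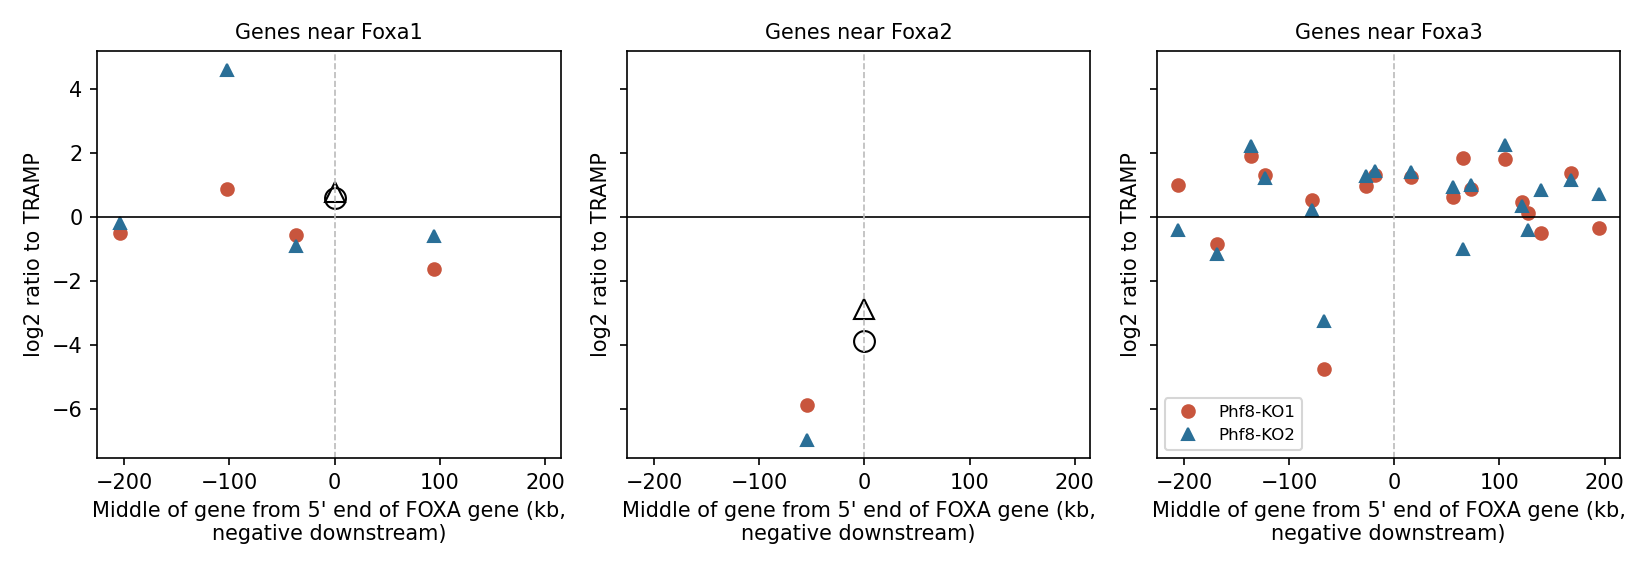
Log2 ratio of each Phf8-KO pool to TRAMP (1 count added to each library) for tested genes within 200 kb of Foxa1, Foxa2 and Foxa3, against the distance of the middle of the gene from the 5′ end of the RefSeq span of the FOXA gene in kb. Large open symbols are Foxa1 and Foxa2 themselves (Foxa3 was not tested), and the single neighbour of Foxa2, 9030622O22Rik, lies below 0 in both pools like Foxa2.

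Other forkhead genes gave the setting for both. Of 44 forkhead genes in the table, 26 were tested, 8 were too low for the test and 10 had no counts in any library. Foxa1 led the family per kilobase of exon in every library. Foxa2 was at place 14 of 44 in TRAMP, 22 in Phf8-KO1 and 20 in Phf8-KO2. Foxa1 took 35.7%, 33.9% and 35.0% of the summed forkhead CPM in TRAMP, Phf8-KO1 and Phf8-KO2, so the higher Foxa1 level went with a higher sum of the family, which was 749, 1200 and 1325 CPM.

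Most tested forkhead genes lay on the side of Foxa1. Of the 26, 19 were above TRAMP in both Phf8-KO pools (73.1%, beside 40.8% of all tested genes), 5 were below in both and 2 were split, and the median log2 fold change was 0.77 beside 0.0099 for all tested genes. The quasi-likelihood test called 0 of the 26. At an unadjusted p under 0.05, 11 were higher (42.3%, beside 14.9%) and 1, Foxa2, was lower. DESeq2 called 4 higher and 1 lower, beside 9.42% and 4.59% of 16269 genes. No other tested forkhead gene had a log2 fold change below that of Foxa2. Among the 24 tested genes other than Foxa1 and Foxa2, 20 had a positive log2 fold change and 4 a negative one. Under upper quartile scaling, which shifted the median of all genes by -0.15, Foxn2 and Foxn3 changed sign and the split was 18 to 6.

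Apart from Foxa2, the 8 forkhead genes with the smallest p all had higher values in both Phf8-KO pools. Foxm1, which drives the genes of mitosis, was at 6.96 CPM in TRAMP, against 35.4 CPM for Phf8-KO1 and 34.2 CPM for Phf8-KO2, with a log2 fold change of 2.32 (standard error 0.23). Foxk1, a repressor of autophagy genes, was at 15.96, 45.3 and 45.6 CPM, with a log2 fold change of 1.51 (standard error 0.20). Foxp4, a repressor of the FOXP group, was at 34.6, 90.2 and 107 CPM, also with a log2 fold change of 1.51 (standard error 0.22). For each of the 3 genes, the Phf8-KO pools lay closer to each other than to TRAMP. Each had an adjusted p of 0.10 by edgeR's quasi-likelihood test, and DESeq2 called all 3 higher (adjusted p = 7.0e-08, 0.00026 and 9.0e-05).

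Foxf2, a gene of the mesenchyme around gut and prostate, was at 0.173 CPM in TRAMP, against 3.04 CPM for Phf8-KO1 and 2.14 CPM for Phf8-KO2, with a log2 fold change of 3.87 (standard error 0.84), and was the remaining gene that DESeq2 called higher (adjusted p = 0.013). Smaller differences of the same sign were seen for Foxj2 (15.96, 30.6 and 31.6 CPM), Foxp1 (69.4, 119 and 125 CPM), Foxk2 (47.1, 75.1 and 85.3 CPM) and Foxo4 (43.1, 77.4 and 68.8 CPM), with log2 fold changes of 0.96, 0.81, 0.77 and 0.76. The 4 forkhead genes other than Foxa2 that lay below TRAMP in both pools were Foxp2, Foxf1, Foxj1 and Foxn4. Foxp2, a transcription factor gene of neurons, was at 8.00 CPM in TRAMP, against 0.488 CPM for Phf8-KO1 and 2.14 CPM for Phf8-KO2 (log2 fold change -2.59 with a standard error of 0.97, adjusted p = 0.20 by edgeR's quasi-likelihood test, 0.092 by DESeq2). It was named for its direction after its values were seen.

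**Figure D4:**
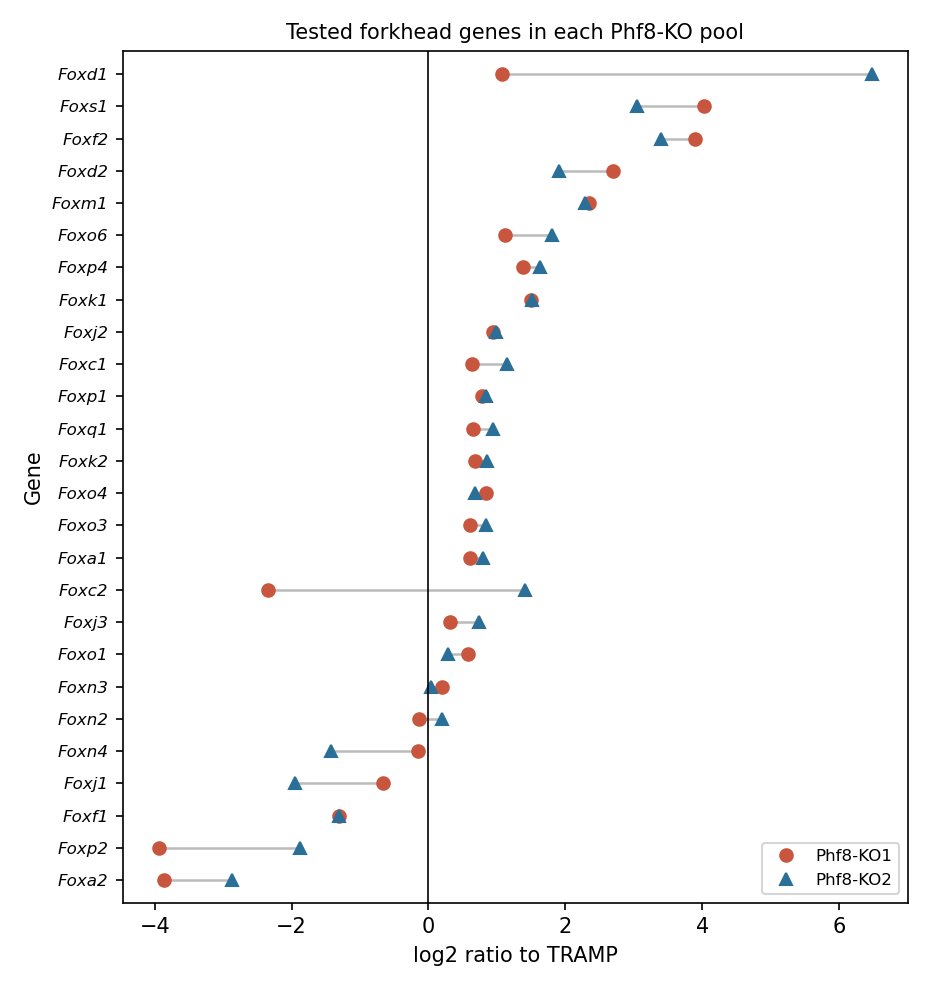
Log2 ratio of each Phf8-KO pool to TRAMP (1 count added to each library) for the 26 tested forkhead genes, ordered by fitted log2 fold change, with a line joining both pools. Foxa2 is at the bottom with both pools left of 0, and Foxa1 is among the 19 genes with both pools right of 0.

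FOXA1 acts in luminal cells with a small group of other factors. All 11 listed partner genes were tested. Of these, 7 lay above TRAMP in both Phf8-KO pools, 2 below and 2 split, beside 40.8% above and 42.8% below over all tested genes. The median log2 fold change was 0.23. The quasi-likelihood test called 0 (unadjusted p under 0.05 for 4 genes, all with higher values, beside 14.9% of all tested genes). DESeq2 called 4 higher (Gata2, Gata3, Tle3 and Esr1) and 0 lower, beside 9.42% and 4.59% of 16269 genes. Gata2, a GATA factor that binds beside FOXA1, was at 55.1 CPM in TRAMP, against 260 CPM for Phf8-KO1 and 206 CPM for Phf8-KO2. Gata3, the other GATA factor of luminal epithelium, was at 50.7, 171 and 140 CPM (log2 fold change 1.62 with a standard error of 0.24). Both GATA genes had larger log2 fold changes than Foxa1, a difference that was not tested, and each overlaps annotated noncoding genes with counts of their own, so some of their reads may be shared.

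Tle3, a corepressor that FOXA proteins recruit, was at 81.3, 160 and 201 CPM (log2 fold change 1.15 with a standard error of 0.25). Esr1, which encodes the estrogen receptor, was at 26.0, 73.1 and 45.3 CPM (log2 fold change 1.19 with a standard error of 0.37). Hoxb13, a prostate homeobox gene, was at 151, 174 and 229 CPM. The summed level of 11 luminal secretory genes was 12585 CPM in TRAMP, against 7779 CPM for Phf8-KO1 and 3743 CPM for Phf8-KO2. Of the 11, 6 were below TRAMP in both pools, 3 above and 2 split, with a median log2 fold change of -0.23. Over all tested genes, 42.8% were below in both and 40.8% above. The lower sum came from Msmb (4805, 4326 and 190 CPM), Sbp (3128, 12.0 and 340 CPM) and Azgp1 (1566, 366 and 489 CPM). The other 8 genes summed to 3086, 3075 and 2725 CPM, but went both ways. One of them, Tgm4, a secreted transglutaminase, was at 12.5, 495 and 105 CPM. Of the 11 genes, DESeq2 called 1 higher (Tgm4) and 1 lower (Azgp1), beside 9.42% and 4.59% of 16269 genes. Others of the 8 lay below TRAMP in both pools, with log2 fold changes down to -4.31.

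In endoderm, FOXA2 and FOXA3 work with the HNF factors and with GATA4 and GATA6, and FOXA2 switches on Shh. Of 16 listed genes, 11 were tested, 6 of them below TRAMP in both pools and 4 above, with a median log2 fold change of -0.48. Over all tested genes, 42.8% were below in both and 40.8% above. The quasi-likelihood test called 0. At an unadjusted p under 0.05 of that test, 2 were lower and 2 higher, beside 12.2% and 14.9% of all tested genes. DESeq2 called 1, Prox1, lower, beside 4.59% of 16269 genes. Shh, the signal made by FOXA2-positive epithelium of the embryo, had 109 counts in TRAMP (3.77 CPM), 11 in Phf8-KO1 (0.413 CPM) and 25 in Phf8-KO2 (0.755 CPM). Its ratio of Phf8-KO2 to Phf8-KO1 was 1.83, with an exact counting interval of 0.867 to 4.12 that includes equality. For Shh, the ratio of TRAMP to both pools was 6.26 (exact counting interval 4.26 to 9.40), with an adjusted p of 0.13 by edgeR's quasi-likelihood test and 0.098 by DESeq2. Shh overlaps the long noncoding RNA gene 9530036O11Rik, which had 14, 7 and 11 counts in TRAMP, Phf8-KO1 and Phf8-KO2, so some reads may be shared. Prox1, a homeobox gene of liver and neuroendocrine cells, was at 16.4, 3.64 and 2.44 CPM, a ratio of 5.51 (4.63 to 6.58).

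Hnf4a, the main nuclear receptor of hepatocytes, was at 0 CPM in TRAMP, against 0.263 CPM for Phf8-KO1 and 0.543 CPM for Phf8-KO2. Its relative Hnf4g was at 15.6, 9.72 and 1.39 CPM. Gata4, Pdx1 and Cdx2, factors of foregut, pancreas and intestine, had no counts in any library.

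FOXA2 also binds HIF1A and, with it, acts on Hes6, Sox9 and Kdm3a in neuroendocrine prostate tumors. Of 8 genes of this group, all tested, 3 lay above TRAMP in both pools, 2 below and 3 split, with a median log2 fold change of 0.14. Over all tested genes, 40.8% were above in both and 42.8% below. DESeq2 called 2, Sox9 and Slc2a1, higher and 0 lower, beside 9.42% and 4.59% of 16269 genes. The quasi-likelihood test of edgeR called 0, with 1 gene higher at an unadjusted p under 0.05, beside 14.9% of all tested genes. Hes6 was at 54.5 CPM in TRAMP, against 35.1 CPM for Phf8-KO1 and 48.8 CPM for Phf8-KO2 (adjusted p = 0.42 by edgeR's quasi-likelihood test). Sox9 was at 72.2, 130 and 188 CPM (log2 fold change 1.14 with a standard error of 0.31), opposite in direction to Foxa2. Slc2a1, the glucose transporter gene of the hypoxic response, was at 18.8, 35.4 and 92.1 CPM, and Vegfa at 73.5, 49.7 and 253 CPM, with the Phf8-KO pools far apart. Hif1a was at 77.7, 61.5 and 69.3 CPM and Kdm3a at 210, 163 and 280 CPM.

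Most neuroendocrine marker genes were lower in both Phf8-KO pools, as Foxa2 was. Of 12 listed genes, 11 were tested, 9 of them below TRAMP in both pools, 0 above and 2 split, with a median log2 fold change of -1.59. Over all tested genes, 42.8% were below in both and 40.8% above. DESeq2 called 4 lower, beside 4.59% of 16269 genes. The quasi-likelihood test called 0 (6 were lower at an unadjusted p under 0.05, beside 12.2% of all tested genes). On the log2 scale Foxa2 at -3.35 stood between Pcsk1 (-8.92) and Scg2 (-6.18) on one side and Chga (-1.95), Scg3 (-1.66) and Syp (-1.52) on the other, with standard errors from 0.37 to 0.95. The differences between Foxa2 and these genes were not tested. Neurod1 had no counts, and Ncam1 was at 15.7, 29.4 and 13.9 CPM.

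**Figure D5:**
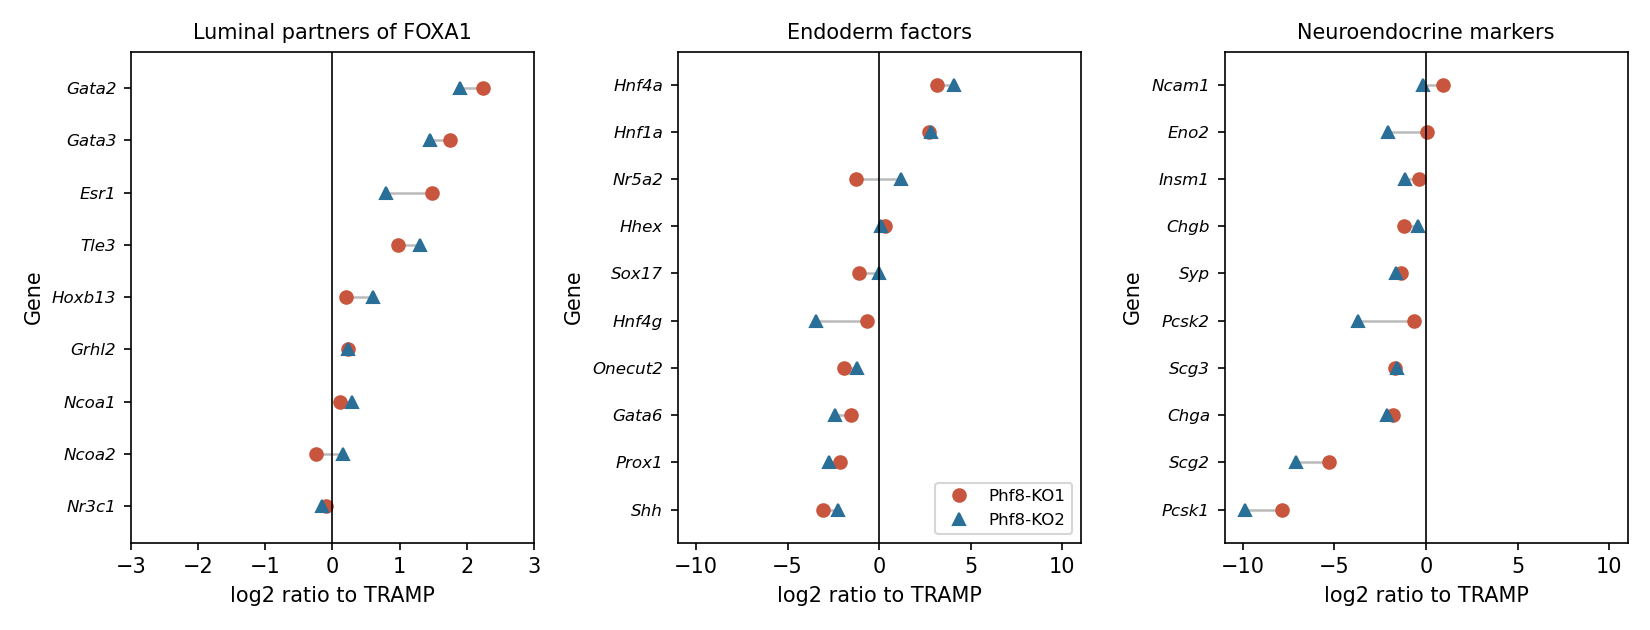
Log2 ratio of each Phf8-KO pool to TRAMP (1 count added to each library) for tested luminal partner genes of FOXA1, endoderm factors and neuroendocrine markers that are reported here, with a line joining both pools and a narrower axis in the first panel. Gata2 and Gata3 lie right of 0 in both pools and Prox1, Shh, Scg2 and Pcsk1 left of 0 in both.

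Goblet cell genes were listed because FOXA factors control mucus genes. Tff3, a secreted trefoil peptide, was at 5.09 CPM in TRAMP, against 320 CPM for Phf8-KO1 and 2204 CPM for Phf8-KO2, and Fcgbp, a mucus protein gene, was at 0, 5.97 and 24.1 CPM. Both were highest in Phf8-KO2, the only library with Foxa3 counts, but these were 8 counts and a link was not tested. Ern2 was at 0.104, 1.54 and 34.5 CPM, in the same order. Spdef was low and split at 0.381, 0.225 and 0.694 CPM, and Muc2 and Muc5b were too low for the test. Fcgbp overlaps the annotated pseudogene Gm21925, which had 9, 36 and 102 counts in TRAMP, Phf8-KO1 and Phf8-KO2, so some reads may be shared. Clca1, another secreted goblet cell protein, ran the other way at 17.0, 0.525 and 1.81 CPM, as did Agr2, a disulfide isomerase and the most abundant of these genes in TRAMP, at 786, 270 and 457 CPM. DESeq2 called Clca1 and Agr2 lower. Of 8 tested goblet genes, 5 lay above TRAMP in both pools and 2 below (median log2 fold change 0.99), beside 40.8% and 42.8% of all tested genes. DESeq2 called 3 higher and 2 lower, beside 9.42% and 4.59% of 16269 genes. The quasi-likelihood test called 0. At an unadjusted p under 0.05 of that test, 2 were higher and 1 lower, beside 14.9% and 12.2% of all tested genes.

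Tissue makeup differed between the libraries too, and in bulk RNA fewer cells of a type and less RNA per cell cannot be told apart. The summed level of 10 skeletal muscle genes was 1744 CPM for TRAMP beside 74.0 and 17.4 CPM for Phf8-KO1 and Phf8-KO2, with all 10 below TRAMP in both pools, and that of 7 adipocyte genes was 690, 19.8 and 30.8 CPM, with all 7 below. The 7 seminal vesicle genes summed to 116, 1435 and 2101 CPM, all 7 above TRAMP in both pools. Over all tested genes, 42.8% lay below TRAMP in both pools and 40.8% above. The 7 smooth muscle genes were at 676, 4982 and 378 CPM and the 10 hepatocyte genes at 24.5, 302 and 11.1 CPM, both high in Phf8-KO1 alone, where Alb, the albumin gene, was at 150 CPM and Foxa3, which hepatocytes express, had no counts. The 6 urothelial genes summed to 893, 879 and 905 CPM, but 4 of them were below TRAMP in both pools, with a median log2 fold change of -2.46. Krt20 was at 57.1, 0.15 and 0.0302 CPM and Upk3a at 17.0, 1.43 and 0.664 CPM, both called lower by DESeq2, while Upk1b was at 363, 658 and 636 CPM. The 4 basal genes summed to 177, 41.3 and 103 CPM, mostly Krt15 (148, 16.2 and 47.1 CPM), while Krt14 was at 2.77, 11.8 and 8.90 CPM and Trp63 and Krt5 were split. The part of these tissues in the Foxa1 and Foxa2 values was not tested. Without Phf8-KO1, the log2 fold change to TRAMP was 0.79 for Foxa1 and -2.93 for Foxa2, and without Phf8-KO2 it was 0.60 and -3.99.

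Genes with the pattern closest to each FOXA gene were found by the distance between log2 ratios to TRAMP in both Phf8-KO pools, over 13381 tested genes with a mean of at least 1 CPM. Closest to Foxa2 were Slc26a4, Pydc4, Sema3e, Rnf181 and LOC100041057, at distances from 0.17 to 0.29. Slc26a4, the anion exchanger pendrin, was at 375 CPM in TRAMP, against 28.4 CPM for Phf8-KO1 and 54.5 CPM for Phf8-KO2, and Sema3e, a guidance cue, at 4.08, 0.225 and 0.453 CPM. Closest to Foxa1 were Arhgef18, Dlgap4, Cdk9, Tubgcp6 and Ccm2, at distances from 0.0028 to 0.020. Arhgef18 was at 55.3, 84.1 and 96.1 CPM. With 3 libraries and 2 ratios, many genes share such a pattern.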

How the data were processed

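RNA-seq covered 3 libraries of prostate tumors. Reads were filtered by the authors, aligned with HISAT2 to the NCBI mouse genome GRCm38 and assigned to genes by HTSeq; the table they deposited holds raw counts. Versions of these tools, annotation release and strandedness are not given in the sources used here. The tests were run in R 4.3.3, with edgeR 4.0.16 (TMM scaling, filterByExpr by group, quasi-likelihood test, Benjamini-Hochberg adjustment over 18216 genes, call at adjusted p under 0.05 and more than 2-fold), with DESeq2 1.42.0, the study's tool, and limma 3.58.1 as alternatives. DESeq2 gave no adjusted p for 9488 of 25757 genes with a count. A standard error is the size of the log2 fold change divided by the square root of F. There is 1 residual degree of freedom, from the knockout pools, and the control is taken to vary as they do.

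CPM use TMM library sizes, and 3 counts, the floor used, correspond to 0.104 CPM (TRAMP), 0.113 CPM (Phf8-KO1) and 0.0905 CPM (Phf8-KO2). Intervals (95%, exact Poisson or Clopper-Pearson) and floors cover counting error only. Exon lengths and gene spans are from GENCODE M21, and neighbours, promoters and symbols (90.0% matched) from RefSeq GRCm38.p6. The members, the 4 gene lists of factors and the 10 marker lists were chosen with earlier results of these data known. Named genes are the FOXA genes, Phf8, the 8 other forkhead genes with the smallest p, the 4 genes of smallest p in each list, genes within 200 kb of a FOXA gene and the 5 genes nearest in pattern, genes with Gm or Rik names left out of the last. Some genes under this rule are left out, and others of the lists were named after their values were seen. The fits were tested on simulated counts. Alternatives tried were scaling by RLE, by the upper quartile or by library size, no filter, a mean of at least 1 CPM, DESeq2, limma-voom, the quasi-likelihood test without its legacy setting, and leaving out each Phf8-KO pool. Some genes counted in the lists are not reported here by name.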

Additional observations from a re-analysis of the deposited data

How the results depend on the processing

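Foxa1 stayed higher under every alternative run, with log2 fold changes from 0.55 (upper quartile scaling) to 0.78 (library size alone). They were 0.60 to 0.79 when either Phf8-KO pool was left out, a value with no test. None of these reaches the 2-fold limit, so the lack of a call for Foxa1 was fixed by its fold change. Foxa2 stayed lower under every alternative run. It passed the threshold with no filter on low counts (log2 fold change -3.33, adjusted p = 0.023) and with DESeq2 (-3.35, adjusted p = 0.024), while its adjusted p was 0.098 to 0.12 under the others. Leaving out a Phf8-KO pool gave -3.99 to -2.93. The forkhead genes called went from 0 of 26 to 5 of 34 (1 lower, 4 higher) with no filter on low counts. The share of all genes called in that setting was not counted, so whether 5 of 34 exceeds that share cannot be said. DESeq2 also called 5 (1 lower, 4 higher) of 34 fitted, some of which had no adjusted p and could not be called. Over 16269 genes with an adjusted p, it called 4.59% lower and 9.42% higher. The Foxa2 share of Foxa1 and Foxa2 counts in Phf8-KO was 0.0739% to 0.137% when either pool was left out. Foxa3 had no value after the filter and is given by its counts alone. The cause of these changes was not tested. No paired analysis was possible because the groups share fewer than 2 replicate numbers. With a single TRAMP pool, the spread among control tumors is unknown, and 8 to 21 Foxa2 counts in the Phf8-KO libraries limit the precision of its fold change.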
